A study of Mus musculus with 6 samples.

Results

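The genes described here encode the eukaryotic translation initiation factors. They are the rows of the expression table whose symbol begins with Eif and a digit from 1 to 6, without the eIF2 kinases (Eif2ak), the 4E-binding proteins (Eif4ebp), the 4E transporter (Eif4enif) and pseudogenes marked -ps. This gave 67 of the 55995 features in the table, and the rule uses symbols and no measured value. Of the 67, 44 averaged 1 TPM or more across the 6 libraries and were tested, 3 were above 0 with a lower mean (Eif2s3y, Eif4e1b and Eif5a2), and 20 were at 0 in every library. The 20 were 17 numbered Eif1ad copies, Eif4a3l1, Eif4a3l2 and Eif2c5, whose symbol is an older name of the argonaute family and not of an initiation factor. TPM is a transcript level scaled for transcript length and library size.

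RNA was sequenced from the gastrocnemius, a fast-twitch calf muscle, of NOD/SCID/IL2Rγ-null (NSG) mice, which lack mature T, B and NK cells. All mice carried a subcutaneous left flank xenograft of wild-type MDA-MB-231 cells, an established line from a human mammary carcinoma. For radiotherapy (3 libraries), a tumour grown to roughly 800 mm3 was given 10 Gy at once (X-rays of 6 MV, dose rate 6 Gy/min), and 3 days on the gastrocnemius of the other side was collected. The control group (3 libraries) carried the label control, with no dose, tumour volume or day of its own given. The labels name no age, sex or separate animals, so the spread behind each p-value is that between libraries and may be technical.

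Initiation factors bring the ribosome to the start codon of a messenger RNA. eIF2 delivers the initiator tRNA to the small ribosomal subunit, where eIF1, eIF1A and eIF3 prepare it for scanning, and eIF2B recharges eIF2 with GTP. eIF4E binds the cap, eIF4G holds eIF4E and the helicase eIF4A together, and eIF5 and eIF5B complete start codon selection and joining of the large subunit. In skeletal muscle the activity of eIF2B and of the cap-binding complex is a control point for protein synthesis.

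All 44 tested genes were at lower levels in radiotherapy replicates 1 and 2 than in every control library, while radiotherapy replicate 3 was below the control range for 14 of them, inside it for 15 and above it for 15. Of all 11938 features tested, 58.8% lay below every control library in replicates 1 and 2. In replicate 3, 30.9% of all features lay below the control range and 31.5% above it, shares near those of the initiation factors (31.8% and 34.1%). In replicates 1 and 2 together, the mean level of a factor gene was 13.2% to 70.9% of its control mean (median 44.7%, beside 59.5% for all features). In replicate 3 it was 52.9% to 336% (median 111%, beside 96.7%). The summed TPM of all members was 5099, 6140 and 4386 in control replicates 1, 2 and 3 and 2432, 2329 and 6231 across radiotherapy replicates 1 to 3, so the radiotherapy libraries lay on both sides of the control range. No gene of the set passed the test.

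**Figure D1:**
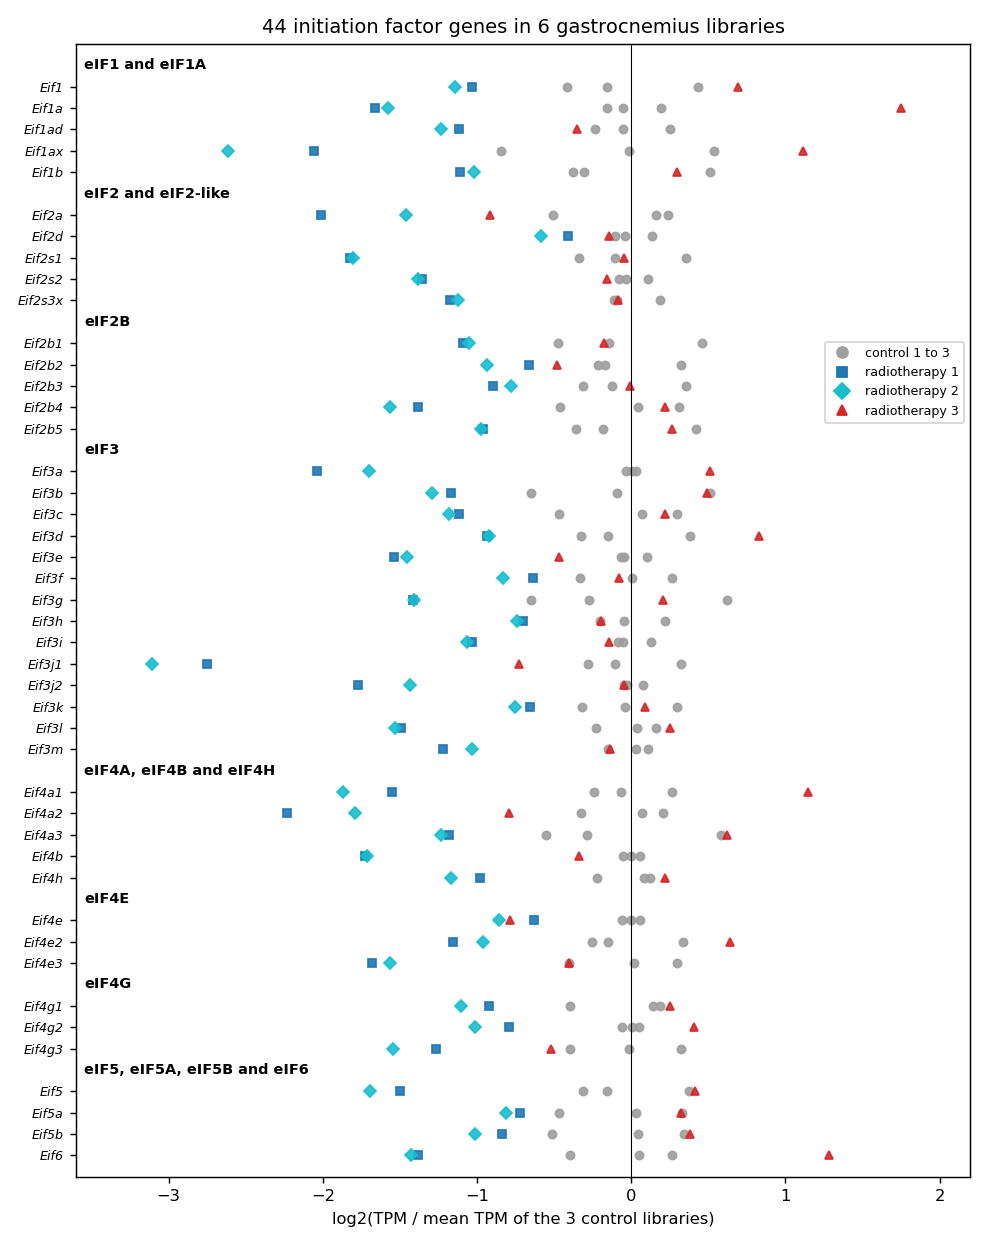
Level of each of the 44 tested initiation factor genes in 6 libraries, as log2 of the TPM divided by the mean of the 3 control libraries (x axis), with 1 row per gene grouped by complex. Each point is 1 library, and the blue and cyan points of radiotherapy replicates 1 and 2 lie left of every grey control point in all 44 rows, while the red points of replicate 3 lie on either side.

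Differences between radiotherapy and control were tested on log2(TPM + 1) with limma across all 11938 features, with Benjamini-Hochberg adjustment, and a gene was called at an adjusted p under 0.05. Of the 44 genes, 0 were called lower and 0 higher, beside 0.0168% and 0.0419% of all features, and the smallest adjusted p was 0.276. At an unadjusted p under 0.05, 10 were lower and 0 higher by limma, beside 13.3% and 1.18% of all features. In all 3 radiotherapy libraries 14 of 44 (31.8%) lay under every control library and 0 lay above, beside 19.3% and 1.73% of all features. The median log2 change of the 44 was -0.71, and that of all features was -0.36. All 44 log2 changes were below 0 as deposited, beside 78.5% of all features, and 35 of the 44 were with median-of-ratios scaling, which moved the median of all features to 0.01 and the share below 0 to 48.4%. The median of the factor genes was then -0.26, and the 9 above 0 were Eif1, Eif1a, Eif2d, Eif3d, Eif3k, Eif4e2, Eif4g2, Eif5a and Eif5b.

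**Figure D2:**
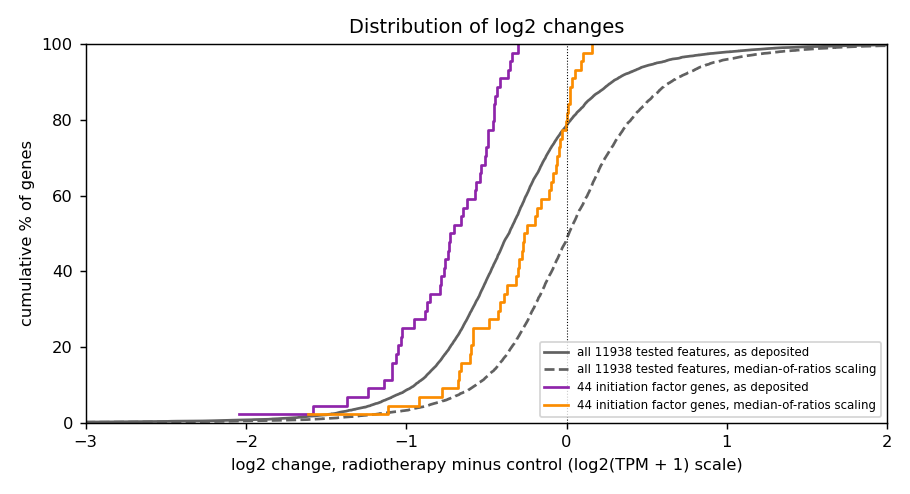
Cumulative percentage of genes (y axis) by log2 change, radiotherapy minus control (x axis), for the 44 initiation factor genes and all 11938 tested features, as deposited and with median-of-ratios scaling. The median of the factor genes lies left of that of all features under both scalings, at -0.71 against -0.36 and at -0.26 against 0.01.

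Without radiotherapy replicate 3, which leaves 2 radiotherapy libraries, 31 of 44 genes (70.5%) were called lower by limma and 0 higher, beside 27.6% and 1.98% of all features. With median-of-ratios scaling as well, 3 of 44 (6.82%) were called lower, beside 2.64% of all features. These 3 were Eif3a, Eif3j1 and Eif4b. With that scaling and all libraries, replicates 1 and 2 lay below every control library for 26 of 44 genes, beside 24.5% of all features, and all 3 radiotherapy libraries for 10 of 44, beside 8.99%. The 20 most abundant genes and the mitochondrial genes together held 34.5% to 45.3% of the TPM in control, 53.95% and 55.5% in radiotherapy replicates 1 and 2 and 32.4% in replicate 3. When these genes were left out and the rest rescaled, replicates 1 and 2 still lay below every control library for 44 of 44 factor genes, beside 38.4% of the 11907 features kept.

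The tissue label was checked against 8 muscle fibre markers, all of which were detected, and their summed TPM was 94900 to 100600 in control, 137100 and 145200 in radiotherapy replicates 1 and 2 and 76620 in replicate 3. Acta1, Ckm, Tnnt3, Mylpf and Pvalb were above the control range in both replicates 1 and 2. Myh1 was inside it in both, Myh4 in replicate 1 and Actn3 in replicate 2. In replicate 3, 6 of the 8 were below the control range. All 6 neutrophil markers with a mean of at least 1 TPM were above the control range in replicate 3, and the summed level of the 8 listed neutrophil markers was 73.6 to 183 TPM in control, 11.0 and 18.4 TPM in replicates 1 and 2 and 2953 TPM in replicate 3. Of 6 macrophage markers, 2 were above the control range in replicate 3 (summed level 180 TPM, against 30.3 to 89.8 TPM in the controls and 38.8 and 56.8 TPM in replicates 1 and 2). These were Cd68, which alone made up 121 TPM of that sum, and Csf1r, at 5.96 TPM. Adgre1, C1qa, C1qb and Mrc1 were inside the control range there. Of 5 endothelial markers, 2 were above and 2 below the control range there (summed level 96.9 TPM, against 57.5 to 71.2 TPM in the controls and 43.4 and 40.4 TPM). The summed levels of 5 tendon markers, 8.21 to 18.7 TPM in control, were 54.7, 41.3 and 8.79 TPM across radiotherapy replicates 1 to 3. Of 5 fibroblast markers, Col1a1 and Col3a1, collagen genes, were above every control library in all 3 radiotherapy libraries, at 1.35 to 2.05 against 10.7, 14.0 and 3.00 TPM and at 3.39 to 4.18 against 19.8, 19.9 and 8.27 TPM, and so were 2 of 5 erythroid markers, Hba-a1 (76.1 to 320 against 511, 466 and 405 TPM) and Alas2 (0.76 to 2.56 against 4.25, 4.47 and 4.06 TPM). Other members of these 2 lists were below the control range in replicate 3. These were Dcn (97.4 to 155 against 88.7, 102 and 76.3 TPM) and Lum (1.05 to 2.54 against 3.01, 2.92 and 0.97 TPM) among fibroblast markers. Among erythroid markers it was Hba-a2 (121 to 508 against 310, 282 and 97.25 TPM). The summed levels were 104 to 164.5 TPM in control and 123, 140 and 90.4 TPM for fibroblast markers, and 312 to 1395 TPM and 1307, 1245 and 846.5 TPM for erythroid markers. For 4 adipocyte markers they were 3.33 to 40.4 TPM and 23.9, 10.1 and 10.5 TPM. Of 5 T, B and NK cell markers, 2 were at 0 in every library and the sum was at most 0.29 TPM. The part of these cells, and of library composition, in the levels of the factor genes was not tested, and in bulk tissue fewer cells of a type and less RNA per cell cannot be told apart.

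eIF1 and eIF1A bind the small subunit and govern scanning and the choice of the start codon. Eif1, the most abundant of all members, was at 935, 1409 and 781 TPM across control replicates 1 to 3 and at 509.5, 471 and 1680 TPM across radiotherapy replicates 1 to 3. Eif1b, its paralogue, was at 47.8, 88.4 and 50.3 TPM and at 28.7, 30.6 and 76.4 TPM. In both genes replicates 1 and 2 were low, and replicate 3 was above the control range for Eif1 and inside it for Eif1b. The Eif1 level was 15.5 to 19.6 times that of Eif1b in control and 17.7, 15.4 and 22.0 times after radiotherapy (exact permutation test of the log2 ratio, two-sided, p = 0.7, and 0.7 adjusted over 4 ratios). Eif1ax, the X-linked eIF1A gene, ranged from 10.5 TPM in radiotherapy replicate 2 to 138 TPM in replicate 3, with 35.7 to 93.0 TPM in control. Eif1a, its autosomal paralogue, was at 7.70 to 9.82 TPM in the controls and at 2.72, 2.88 and 28.9 TPM after radiotherapy, where replicate 3 was at 336% of the control mean, the highest value of the 44 genes. Of the 5 genes, 1 was lower in every radiotherapy library, beside 19.3% of all features. This was Eif1ad, which encodes a protein with an eIF1A-like domain. It was at 11.4, 14.1 and 10.0 TPM in the controls and 5.45, 5.03 and 9.28 TPM after radiotherapy (log2 change -0.79, SE 0.30, adjusted p = 0.332 by limma).

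eIF2 is a trimer of an alpha (Eif2s1), a beta (Eif2s2) and a gamma subunit (Eif2s3x), and phosphorylation of the alpha subunit slows initiation under stress. Eif2s1 was at 16.1, 26.0 and 19.0 TPM in the controls and at 5.76, 5.84 and 19.7 TPM after radiotherapy. Eif2s2 was at 113, 99.1 and 102 TPM and at 40.7, 40.1 and 93.8 TPM. Eif2s3x was at 37.7, 30.7 and 31.0 TPM and at 14.6, 15.2 and 31.2 TPM. In all 3 genes replicates 1 and 2 were below every control library, and replicate 3 was at 89.7% to 96.8% of the control mean, inside the control range for Eif2s1 and Eif2s3x and below it for Eif2s2. Their log2 changes were -1.09 (SE 0.48), -0.95 (SE 0.38) and -0.76 (SE 0.35), with adjusted p of 0.354, 0.335 and 0.367 by limma. Eif2s3y, the Y-linked gamma gene, was at 0.05, 0.10 and 0.12 TPM in the controls and 0, 0 and 0.03 TPM after radiotherapy, too low to be tested. Eif2a, an alternative initiator tRNA carrier that is not a subunit of eIF2, was lower in every radiotherapy library, at 49.6, 29.5 and 46.9 TPM in the controls and 10.4, 15.3 and 22.2 TPM. Its log2 change was -1.37 (SE 0.37, adjusted p = 0.276 by limma). Eif2d, which acts in reinitiation and ribosome recycling, was also lower in all 3 but by less, at 18.5 to 21.8 TPM and 13.2 to 18.0 TPM, and its log2 change of -0.36 became 0.09 with median-of-ratios scaling.

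eIF2B, the 5-subunit exchange factor of eIF2, lay near the other complexes, with a median log2 change of -0.66. Eif2b2, the beta subunit, was lower in every radiotherapy library, at 58.0, 84.3 and 59.8 TPM in the controls and 42.5, 35.1 and 48.2 TPM (log2 change -0.66, SE 0.29, adjusted p = 0.349 by limma). Divided by the size factors, the Eif2b2 levels were 44.3, 73.8 and 54.7 TPM and 56.9, 50.7 and 40.8 TPM, with only replicate 3 below the controls. Eif2b1, the alpha subunit, was at 43.7, 66.5 and 34.8 TPM and at 22.6, 23.3 and 42.7 TPM. Eif2b5, which encodes the catalytic epsilon subunit, was at 58.1, 88.1 and 51.3 TPM and at 33.8, 33.5 and 78.9 TPM. For Eif2b1 and Eif2b5, as for Eif2b3 and Eif2b4, replicate 3 lay inside the control range. Of the 5 subunits, 1 was called lower without radiotherapy replicate 3, beside 27.6% of all features. This was Eif2b4, the delta subunit (adjusted p = 0.0198 by limma, log2 change -1.40). With median-of-ratios scaling as well, Eif2b4 was not called (log2 change -0.72, adjusted p = 0.134 by limma). With all libraries as deposited its adjusted p was 0.437 by limma.

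eIF3, the largest initiation factor, was represented by 14 genes, all tested, and made up 34.0% to 35.0% of the summed factor TPM in the controls and 35.35%, 36.25% and 29.2% after radiotherapy. The subunit levels spread 5.58- to 8.03-fold from lowest to highest within each control library, 23.2- and 28.9-fold in radiotherapy replicates 1 and 2 and 9.48-fold in replicate 3. The lowest gene in all 3 radiotherapy libraries was Eif3j1 (7.07, 5.52 and 28.7 TPM), whose reads may not be cleanly divided from those of Eif3j2. Next lowest in radiotherapy replicates 1 and 2 was Eif3a, at 13.3 and 16.7 TPM. Eif3h, the most abundant subunit gene, was at 259, 310 and 232 TPM in the controls and at 164, 159 and 233 TPM after radiotherapy. Eif3k was close to it, at 205 to 314 and 152 to 272 TPM. These 2, with Eif3f, held the highest levels relative to control in replicates 1 and 2, at 60.2% to 61.5% of the control mean. Eif3e was lower in every radiotherapy library, at 150, 152 and 168 TPM in the controls and 53.9, 57.0 and 113 TPM. Its log2 change was -1.14 (SE 0.35, adjusted p = 0.299 by limma). Eif3a, the scaffold subunit, was narrow in control at 53.1 to 55.6 TPM and spread after radiotherapy, at 13.3, 16.7 and 77.6 TPM. Eif3d, the subunit that can itself bind caps, was at 41.1 to 67.0 TPM in the controls and 27.0, 27.1 and 91.3 TPM, and its log2 change of -0.30 was the one nearest to 0 among the 44 genes as deposited.

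The 2 genes for the loosely bound j subunit are near-identical copies, with 99.4% identity over 2369 aligned bases of their GENCODE vM21 transcripts, so the division of reads between them is uncertain. Other listed features share at least 300 bases with Eif1, Eif3e, Eif4b and Eif4e3 at 90% identity or more. For Eif1 this was Emd, another protein-coding gene, at a mean of 34.1 TPM against 964 TPM for Eif1. The pseudogene Eif3s6-ps2 was at 1.25 against 115.5 TPM for Eif3e, and the pseudogene Gm15833 at 1.10 against 70.4 TPM for Eif4b. Gm20696 was at 1.42 against 13.5 TPM for Eif4e3. Eif3j1 was at 59.4, 39.2 and 44.1 TPM in the controls and 7.07, 5.52 and 28.7 TPM after radiotherapy, the largest log2 change of the 44 genes (-2.04, SE 0.58, adjusted p = 0.283 by limma). Eif3j2 was at 93.3 to 102 TPM and at 28.3, 35.7 and 93.3 TPM. Summed, they were at 161, 132.5 and 139 TPM in the controls and 35.3, 41.2 and 122 TPM, a log2 change of -1.335 on the log2(TPM + 1) scale, and the sum was also lower in all 3 radiotherapy libraries. Eif3j1 held 29.6% to 36.85% of this sum in control and 20.01%, 13.4% and 23.5% after radiotherapy. The groups did not overlap in that share, but the difference was not tested. The share also rests on the uncertain division of reads between these near-identical copies.

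**Figure D3:**
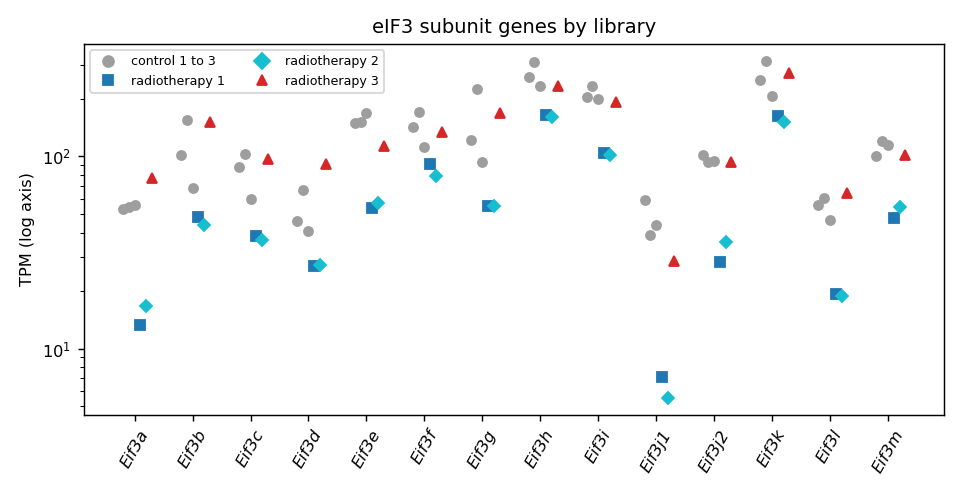
TPM (log axis) of the 14 eIF3 subunit genes (x axis) in each of 6 libraries, with grey circles for control and coloured symbols for radiotherapy replicates. Eif3j1 is the lowest subunit gene in radiotherapy replicates 1 and 2, at 7.07 and 5.52 TPM, and Eif3h the highest, at 164 and 159 TPM.

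eIF4A is an RNA helicase that unwinds the leader of the messenger, and eIF4B and eIF4H are its helpers. The 2 main helicase genes had opposite positions in radiotherapy replicate 3. Eif4a2, the predominant form in control muscle, was at 354, 269 and 389 TPM in the controls and at 71.8, 97.4 and 195 TPM after radiotherapy. Eif4a1 was at 102, 128 and 90.5 TPM and at 36.4, 29.2 and 237 TPM. Eif4a2 was thus below every control library in all 3, and Eif4a1 in replicates 1 and 2 only, with replicate 3 at 221% of the control mean. Eif4a2 had the smallest unadjusted p of the 44 genes (0.00619 by limma, adjusted p = 0.276) with a log2 change of -1.58 (SE 0.41), and Eif4a1 had -0.73 (SE 0.76, adjusted p = 0.63 by limma). The ratio of Eif4a1 to Eif4a2 was 0.288, 0.476 and 0.233 in control and 0.507, 0.300 and 1.21 after radiotherapy, so the groups overlapped (exact permutation test of the log2 ratio, two-sided, p = 0.2, and 0.4 adjusted over 4 ratios). The pseudogene Eif4a-ps4, left out by the rule, is 99.9% identical to Eif4a1 over 1218 aligned bases and was listed at 54.6, 105 and 46.1 TPM in the controls and 21.7, 18.1 and 144 TPM after radiotherapy. Its reads and those of Eif4a1 may not be told apart, and the 2 summed were at 157, 233 and 137 TPM and at 58.1, 47.3 and 381 TPM. Eif4b was narrow in control at 99.9, 95.8 and 92.4 TPM and was at 29.1, 29.2 and 75.8 TPM after radiotherapy (log2 change -1.24, SE 0.41, adjusted p = 0.306 by limma). This complex held 10.2% to 15.0% of the summed factor TPM in the controls and 7.76%, 8.70% and 10.4% after radiotherapy.

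eIF4E binds the cap and is held in check by the 4E-binding proteins. Eif4e was at 44.3, 40.9 and 42.6 TPM in the controls and 27.5, 23.6 and 24.7 TPM after radiotherapy. As deposited, all 3 radiotherapy libraries were low, replicate 3 included, at 57.9% of the control mean, beside 59.9% for replicates 1 and 2. The group means were 42.6 ± 1.73 and 25.2 ± 2.02 TPM (SD, n = 3 per group), with a log2 change of -0.74 (SE 0.24, adjusted p = 0.306 by limma), -0.28 with median-of-ratios scaling. Divided by the median-of-ratios size factors, Eif4e was at 33.9, 35.8 and 39.05 TPM in the controls and 36.8, 34.0 and 20.8 TPM after radiotherapy, so that replicates 1 and 2 lay inside the control range and replicate 3 below it. With that scaling and without replicate 3, the log2 change was -0.04 (adjusted p = 0.898 by limma). Eif4e3, an atypical cap-binding form, was at 22.7, 18.7 and 14.0 TPM in the controls, then 5.76, 6.22 and 13.9 TPM, with replicate 3 just under the lowest control library. Eif4e2, the form that represses translation at capped messengers, was at 29.3 to 44.1 TPM in the controls and 15.7, 18.0 and 54.5 TPM, above the control range in replicate 3. Eif4e1b, an oocyte form, was at no more than 0.13 TPM in any library.

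eIF4G is the scaffold that joins eIF4E, eIF4A and eIF3. Eif4g1 was at 180, 174 and 120 TPM in the controls and at 83.4, 73.4 and 188 TPM after radiotherapy. Eif4g3, its paralogue, was at 73.5, 58.1 and 44.7 TPM and at 24.5, 20.1 and 40.9 TPM, lower in all 3 (log2 change -1.05, SE 0.36, adjusted p = 0.306 by limma). The ratio of Eif4g1 to Eif4g3 was 2.45, 2.99 and 2.68 in control and 3.41, 3.65 and 4.60 after radiotherapy, so every radiotherapy library lay above every control library. The difference in log2 ratio was 0.51, from 1.43 ± 0.145 to 1.95 ± 0.226 (SD, n = 3 per group; exact permutation test, two-sided, p = 0.1, the smallest that 3 against 3 allows, and 0.4 adjusted over 4 ratios). Eif4g2, which lacks the eIF4E-binding part and serves cap-independent initiation, was the most abundant of the 3, at 172, 186 and 180 TPM and at 103, 89.0 and 239 TPM.

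**Figure D4:**
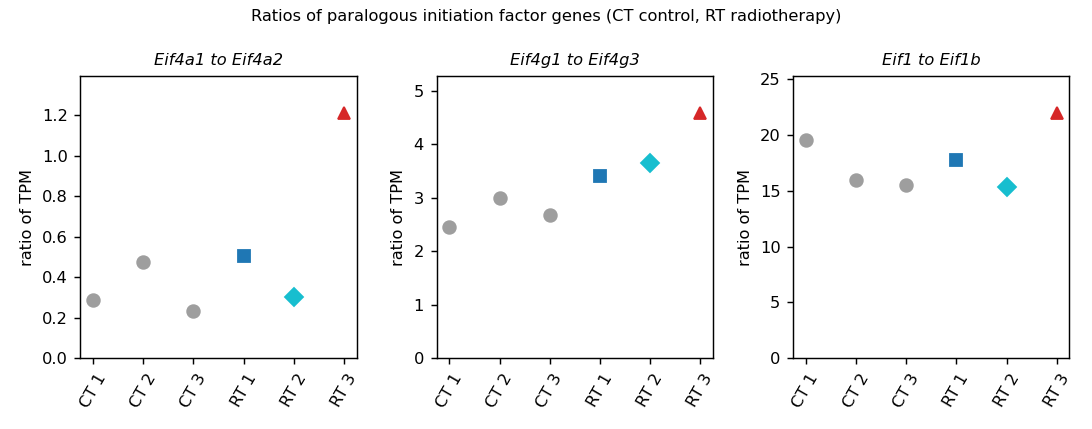
Ratio of the TPM of 2 paralogous genes (y axis, from 0) in each of 6 libraries (x axis), for Eif4a1 to Eif4a2, Eif4g1 to Eif4g3 and Eif1 to Eif1b. In the middle panel the 3 radiotherapy libraries, at 3.41 to 4.60, lie above the 3 control libraries, at 2.45 to 2.99, while in the other panels the groups overlap.

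Promoters of the 5 cap-complex genes that follow are shown because the paralogues Eif4a1 and Eif4a2, and Eif4g1 and Eif4g3, lay on different sides of the control range in radiotherapy replicate 3, and because Eif4e, as deposited, was low in every radiotherapy library (with median-of-ratios scaling, in replicate 3 only). Each is the 250 bases before the transcript start in RefSeq, build GRCm38.p6, written 5′ to 3′ on the gene's strand. Capitals mark GC boxes (GGGCGG, either strand), E-boxes (CACGTG, which reads the same on both strands) and CCAAT boxes (CCAAT, either strand), of which none overlap here. The positions are chr11:69672424-69672673, minus strand for Eif4a1, chr16:23107218-23107467, plus strand for Eif4a2, chr16:20672477-20672726, plus strand for Eif4g1, chr4:137993205-137993454, plus strand for the first of 2 starts of Eif4g3, 1 base apart, and chr3:138527018-138527267, plus strand for the second of 2 starts of Eif4e.
Eif4a1: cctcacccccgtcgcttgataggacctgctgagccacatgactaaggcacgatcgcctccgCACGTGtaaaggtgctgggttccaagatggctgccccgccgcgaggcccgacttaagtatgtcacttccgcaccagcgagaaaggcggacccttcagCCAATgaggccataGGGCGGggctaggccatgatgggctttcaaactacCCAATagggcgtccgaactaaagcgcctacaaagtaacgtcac
Eif4a2: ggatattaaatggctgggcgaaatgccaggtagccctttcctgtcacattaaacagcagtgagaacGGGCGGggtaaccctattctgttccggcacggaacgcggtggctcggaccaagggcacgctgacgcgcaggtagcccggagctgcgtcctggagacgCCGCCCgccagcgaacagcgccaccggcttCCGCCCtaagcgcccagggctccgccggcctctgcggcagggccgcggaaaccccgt
Eif4g1: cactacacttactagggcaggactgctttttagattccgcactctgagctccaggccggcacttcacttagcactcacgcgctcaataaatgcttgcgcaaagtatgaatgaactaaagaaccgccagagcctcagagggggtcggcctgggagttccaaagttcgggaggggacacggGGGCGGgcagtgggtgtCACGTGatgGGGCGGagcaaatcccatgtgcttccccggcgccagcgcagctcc
Eif4g3: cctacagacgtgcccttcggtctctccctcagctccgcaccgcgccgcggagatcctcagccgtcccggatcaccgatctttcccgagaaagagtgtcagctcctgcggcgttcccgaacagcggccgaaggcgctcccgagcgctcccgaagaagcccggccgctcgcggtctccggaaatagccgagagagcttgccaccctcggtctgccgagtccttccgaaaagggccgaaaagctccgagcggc
Eif4e: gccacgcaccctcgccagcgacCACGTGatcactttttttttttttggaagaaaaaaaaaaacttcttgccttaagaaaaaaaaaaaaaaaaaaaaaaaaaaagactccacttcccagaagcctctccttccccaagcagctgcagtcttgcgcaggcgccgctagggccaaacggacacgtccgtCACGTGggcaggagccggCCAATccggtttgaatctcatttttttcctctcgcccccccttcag

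Eif4a1 and Eif4g1 each hold an E-box in this window, and Eif4e holds 2. The window of the first Eif4e start, chr3:138525941-138526190, plus strand, holds none of the 3 motifs. Eif4a2 has GC boxes only, and Eif4g3 holds none of the 3 motifs. Of the 44 tested genes, 35 had a promoter of 300 bases (250 before and 50 after the start) in the RefSeq table. The GC box was found in 27 of the 35 genes (77.1%), beside 38.2% of all 27025 genes in the table. Those 27025 genes were not filtered by their level in muscle, while the 35 all averaged 1 TPM or more. The part of this difference in the shares given here was not tested. The E-box was found in 9 (25.7%, beside 8.09%), and the ETS core (CCGGAAG, either strand) in 12 (34.3%, beside 9.93%). The CCAAT box was found in 11 (31.4%, beside 41.1%) and TATAAA, on either strand, in 3 (8.57%, beside 15.7%). The median GC content was 62.2% in the windows of the factor genes and 52.7% in all windows, and its part in these shares was not tested. Of the 9 genes with an E-box, radiotherapy replicate 3 was above the control range in 4, inside it in 4 and below it in 1 (Eif4e), beside 12, 13 and 10 of the 35.

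Of the 4 tested genes of the later steps (Eif5, Eif5a, Eif5b and Eif6), 0 were lower in all 3 radiotherapy libraries, beside 19.3% of all features. eIF5 triggers GTP hydrolysis by eIF2, and Eif5 was at 84.0, 52.0 and 58.0 TPM in the controls and at 22.9, 20 and 86.2 TPM after radiotherapy. Eif5b, the GTPase of subunit joining, was at 50.2, 61.6 and 34.1 TPM and at 27.2, 24.1 and 63.2 TPM. Eif6, which keeps free large subunits apart from small ones, was at 34.3 to 54.2 TPM in the controls and 17.3, 16.8 and 110 TPM. In these 3 of the 4 genes replicate 3 was above every control library, beside 31.5% of all features.

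eIF5A carries hypusine, an amino acid made from spermidine, and the title of the study names spermidine synthase. Eif5a was the second most abundant factor gene, at 463, 569.5 and 328 TPM in the controls and at 275, 258 and 568 TPM after radiotherapy. Replicates 1 and 2 were below the control range and replicate 3 was inside it, near its upper end. The log2 change was -0.37 (SE 0.39, adjusted p = 0.64 by limma), close to the median of all features, and it was 0.10 under median-of-ratios scaling. Leaving out radiotherapy replicate 3, it was -0.73 (adjusted p = 0.0828 by limma), not called. Eif5a2, its paralogue, was at 0.21, 0.10 and 0.14 TPM in the controls and 0.05, 0.06 and 0.10 TPM, too low to be tested. The ratio of Eif5a to Eif5a2, which rests on these low levels, differed by 0.73 on the log2 scale (exact permutation test, two-sided, p = 0.4, and 0.533 adjusted over 4 ratios). Dhps and Dohh, the enzymes that make hypusine on eIF5A, were also low in replicates 1 and 2, with replicate 3 above the control range for Dhps and inside it for Dohh. Dhps was at 38.4, 43.3 and 31.8 TPM in the controls and 23.3, 24.4 and 44.2 TPM, and Dohh at 49.9, 51.1 and 39.8 TPM and 30.6, 29.1 and 45.9 TPM. Their log2 changes of -0.35 (SE 0.33) and -0.43 (SE 0.29) became 0.11 and 0.03 with median-of-ratios scaling, and neither was called (adjusted p = 0.60 and 0.49 by limma).

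**Figure D5:**
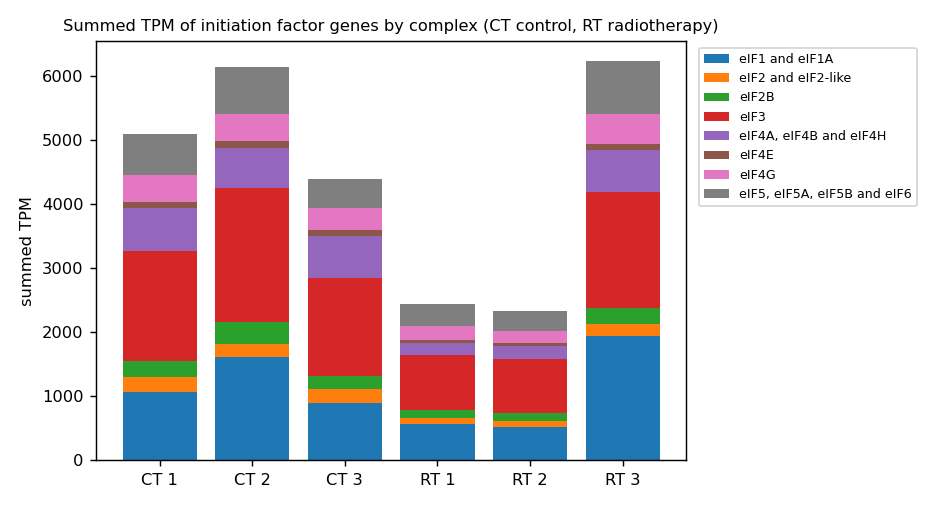
Summed TPM (y axis, from 0) of the initiation factor genes in each of 6 libraries (x axis), stacked by complex. Radiotherapy replicates 1 and 2 sum to 2432 and 2329 TPM, below the control libraries (4386 to 6140 TPM), and replicate 3 to 6231 TPM.

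The other genes of the translation pathway were followed as 7 lists with 47 entries. Of 46 tested, 0 were called lower and 0 higher by limma, 43 had a log2 change below 0, 11 lay under every control library in all 3 radiotherapy libraries and 0 above, and 39 were below every control library in replicates 1 and 2. Beside these stand 0.0168%, 78.5%, 19.3% and 58.8% of all features for lower calls, changes below 0, lower in all 3 and lower in replicates 1 and 2. Without radiotherapy replicate 3, 26 of the 46 were called lower and 0 higher by limma, beside 27.6% and 1.98% of all features.

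The named members were the 2 with the smallest unadjusted p of each list, and none of them was called. Among regulators of eIF2, Eif2ak1, the haem-regulated kinase of eIF2 alpha, was at 8.88 to 13.2 TPM in the controls and 4.59 to 9.51 TPM after radiotherapy, and Nck1, an adaptor, at 12.0 to 12.4 and 6.88 to 10.2 TPM. Among cap-binding regulators, Mknk2, a kinase of eIF4E, was at 289 to 487 TPM in the controls and at 54.7, 48.8 and 474 TPM across radiotherapy replicates 1 to 3. Gigyf2, a partner of Eif4e2, was at 10.1 to 18.4 and 5.03 to 9.42 TPM. Eif4ebp1, the 4E-binding protein and no member by the rule, was named after its values were seen, at 292 to 741 TPM in the controls and 41.4, 55.6 and 1247 TPM after radiotherapy.

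The inhibitors of poly(A)-binding protein, Paip2 and Paip2b, were lower in every radiotherapy library, at 139 to 145 and 70.9 to 116 TPM and at 31.0 to 45.0 and 8.35 to 30.1 TPM. Mcts2, of the reinitiation machinery, was at 25.8, 33.1 and 26.2 TPM in the controls and 10.6, 11.0 and 18.7 TPM after radiotherapy, and Dhx29, a helicase that helps scanning through structured leaders, at 5.73 to 8.02 and 2.27 to 5.43 TPM. These 4 genes were below every control library in all 3 radiotherapy libraries as deposited, and of the other genes named from the lists so were Nck1, Gigyf2 and Eef1a2. With median-of-ratios scaling the log2 changes were -0.24 for Paip2, -0.96 for Paip2b, -0.61 for Mcts2 and -0.55 for Dhx29. They were -0.13 for Nck1, -0.52 for Gigyf2 and -0.43 for Eef1a2. Among elongation factors, Eef1a2, the form of eEF1A in mature muscle, was at 803 to 1209 TPM in the controls and at 471, 464 and 802 TPM, and Eef1e1, a component of the aminoacyl-tRNA synthetase complex, at 14.4 to 17.9 and 5.14 to 15.8 TPM. For termination and recycling, Etf1, the release factor, was at 50.8 to 59.5 TPM and at 17.3, 14.4 and 56.7 TPM, and Abce1, which splits ribosomes, at 24.3 to 28.5 TPM and at 11.8, 11.7 and 30.1 TPM. Adjusted p over the genes named from the lists ran from 0.288 for Mcts2 to 0.60 for Dhps by limma.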

How the data were processed

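RNA from 3 control and 3 radiotherapy gastrocnemius libraries was measured by RNA-seq. The values are TPM as deposited by the authors, 1 column per library, each summing to 1000000 over 55995 features. The submitters' processing notes name HISAT2, StringTie, RSEM and the build mm9, without roles; no annotation release is named in the sources used here. TPM keeps no depth: sequencing depth is therefore unknown, and neither a count test nor a detection limit was possible. Because each library sums to a fixed total, a few abundant genes move the TPM of all others.

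The 11938 features that averaged 1 TPM or more were tested on log2(TPM + 1) with limma 3.58.1 (trended variances, no covariate) in R 4.3.3, with Benjamini-Hochberg adjustment over all of them. Fold changes on this scale understate those of low genes. The 4 paralogue ratios were compared by an exact two-sided permutation test. Values in every library are given for the most abundant gene and the 2 with the smallest unadjusted p of each complex. They are also given for the paralogues, the eIF2 subunits, Eif4e, Eif5a and Eif5a2. The rule further names the 2 pathway genes of smallest p in each list, with values by library or as group ranges. Genes outside this rule, among them Eif3a, Eif3d, Eif3j2, Eif3k, Eif1a, Eif1ax, Eif2d, Eif2b4, Eif4e2 and Eif6, were named after their values were seen. The rule for the members uses symbols only, but the set and the lists were chosen with earlier results of these data known. Near copies were sought by blastn among GENCODE vM21 transcripts for the tested initiation factor genes only, not for the pathway genes. Promoters come from RefSeq (GRCm38.p6). Alternatives were other pseudocounts, filters and scalings, robust variances, a replicate block and leaving out each library.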

Additional observations from a re-analysis of the deposited data

How the results depend on the processing

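The count of initiation factor genes called lower, 0, was kept under both other pseudocounts, both other filters, both other scalings, robust variances and the replicate block. It ran from 0 to 31 when 1 library was left out, with 31 reached without radiotherapy replicate 3, and was 3 without that library and with median-of-ratios scaling, a combination chosen after seeing the data. Of all features, 2 were called lower. This count was 5 with a pseudocount of 0.1, 1 with a mean of at least 5 TPM, 0 with no filter, 1 with median-of-ratios scaling, 4 with the rescaled values, 0 with the replicate block, 315 with the added combination and 0 to 3298 with 1 library left out. The 5 called higher became 0 with no filter, 3 with median-of-ratios scaling, 445 with the added combination and 0 to 236 with 1 library left out. With the replicate block 0 factor genes were called by limma (5 lower at an unadjusted p under 0.05). Same-numbered libraries did not deviate together from their group means (correlations of -0.045, -0.112 and -0.201). Deviations from a mean of 3 libraries cancel within each group, so these values cannot decide whether the libraries were paired. The labels do not state it.

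The log2 change turned above 0 with median-of-ratios scaling for 9 of the 44 factor genes, Eif1 (0.021), Eif1a (0.033), Eif2d (0.09), Eif3d (0.16), Eif3k (0.053), Eif4e2 (0.0043), Eif4g2 (0.0062), Eif5a (0.10) and Eif5b (0.021), and for Dhps (0.11) and Dohh (0.033). With the added combination it was above 0 for 2 of the 44, Eif2d (0.20) and Eif3k (0.023), and for Dhps (0.048) and Dohh (0.059). Without radiotherapy replicate 1 or without replicate 2, 43 of the 44 were below 0. The log2 difference of the Eif1 to Eif1b ratio ran from -0.035, without radiotherapy replicate 3, to 0.22. That of Eif4g1 to Eif4g3 ran from 0.39 to 0.60. The median of the factor genes minus that of all features was -0.36, and from -0.15 to -0.61 over all settings. The cause of these shifts was not tested. Unknown depth and 3 libraries a group limit the precision.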
